A study of Mus musculus with 12 samples.

Results

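Ddx4 and 6 other genes best known from germ cells, Dazl, Sycp1, Sycp3, Piwil1, Piwil2 and Stra8, were followed in mouse bone marrow progenitor cells carrying NUP98-HOX fusions. The 7 genes were measured by 8 probe sets, of 22626 probe sets tested for 12393 genes. Ddx4 was chosen by its measured signals, which were high in cells with active fusions and low in both control groups, so its levels against the controls are given as a description with no test. The other 6 genes were selected for their function in germ cells. The arrays held 12 samples, 3 each of cells transduced with ND13 (NUP98-HOXD13), NA10 (NUP98-HOXA10), ND13(N51S), in which a homeodomain mutation abolishes DNA binding, and the GFP control, the empty vector that the labels call MIG. All cells, controls included, came from adult (C57Bl/6Ly-Pep3b×C3H/HeJ) F1 mice that had received 150 mg/kg fluorouracil 4 days before their marrow was taken. It was prestimulated for 48 hours with IL-6, IL-3 and SCF, kept for 2 days with irradiated GP+E86 virus producer cells, and sorted 24 hours later as GFP+, Sca-1+, Lin-. All 4 groups thus carried an integrated MSCV-IRES-GFP retrovirus, and the triplicates came from independent experiments.

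Ddx4, the mouse homolog of Vasa, is an ATP-dependent RNA helicase of the DEAD box family that gathers in the germ granules of developing germ cells, where it takes part in the making of piRNAs, the small RNAs that silence transposons. Piwil1 and Piwil2 are the Argonaute proteins that carry piRNAs, Dazl binds messenger RNAs and controls their translation, Stra8 responds to retinoic acid at the entry into meiosis, and Sycp1 and Sycp3 build the synaptonemal complex that holds paired chromosomes together. In somatic cells many germ line genes are kept silent by DNA methylation of CpG-rich promoters and by a variant Polycomb complex that holds E2f6 and the partners Mga and Max, which bind the E-box CACGTG.

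The signals were MAS5 values to which the authors had given a common scale, with array means of 500.16 to 500.19 once 2% of probe sets at either end were left out. The background was set per array at the level that 95% of its 27 probe sets for bacterial transcripts did not exceed, 28.5 to 69.8, and 63.8% to 78.2% of probe sets lay above it. Of the markers of the sorted cells, 6 of 7 were measured (Ly6a, which encodes Sca-1, was not analysed here) and all 6 were above background on all 12 arrays, while 0 of 6 measured lineage antigens were. Of these antigens, Cd8a and Cd79a were above background on 10 arrays each, Cd5 on 8, Cd8b1 on 4, Cd3e on 1 and Cd4 on 0. Cd79a and Cd3e were not among the antigens used in the sort. The array of ND13(N51S) replicate 2 stood apart in RNA quality, with a 3'/5' signal ratio of 48.9 for Gapdh against at most 2.71 on the others, and the experiment record of GFP control replicate 1 describes GFP- cells of an ND13(N51S) culture, against its label, which was kept. The transgenes could not be checked on these arrays, since the Hoxd13 probe set was below background on all 12 arrays, and Hoxa10 had signals of 110 to 332 in NA10 cells, against 100 to 119 in the GFP control.

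The promoter of Ddx4 is shown because it holds both motifs of that silencing complex. It is the window of 250 bases before to 50 bases after the start used for promoters (GRCm38.p6, minus strand of chr13:112652261-112652560). That start, from which motif positions are counted, lies inside the RefSeq span of the gene, whose outer end is at 112652633. The E-box CACGTG and the E2F site, TCCCGC on the opposite strand, are in capitals.
Ddx4: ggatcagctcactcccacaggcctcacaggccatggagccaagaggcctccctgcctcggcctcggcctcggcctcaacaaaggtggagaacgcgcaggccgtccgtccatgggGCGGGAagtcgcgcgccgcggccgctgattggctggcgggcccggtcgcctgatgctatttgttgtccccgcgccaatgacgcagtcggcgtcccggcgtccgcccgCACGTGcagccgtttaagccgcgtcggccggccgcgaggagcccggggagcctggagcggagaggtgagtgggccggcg
The E-box began 29 bases before the start of this window's definition and the E2F site 136 bases before that start. The window had 38 CpG dinucleotides, more than 95% of promoters, where the median was 7, and a GC content of 72%. Windows were found for 6 of the 7 genes, and Piwil2 was not among them. The E-box was in 4 of these 6, Ddx4, Sycp1, Sycp3 and Piwil1, against 7.15% of 32851 promoters, and the E2F site on either strand was in 3, Ddx4, Sycp1 and Sycp3, against 20% of promoters. Both motifs hold a CpG, and the 6 windows had 10 to 38 CpG dinucleotides. The shares over all promoters were not matched for CpG content. The HOXD13 site CAATAAA and the HOX-PBX site TGATTTAT, searched on both strands, were in none of the 6, against 4.6% and 0.977% of promoters. No motif match was tested as a binding site. The E-boxes of the other genes are shown in windows of 30 bases, E-box in capitals, and their part in the signals was not tested.
Sycp1 chr3:102936177-102936206 (- strand): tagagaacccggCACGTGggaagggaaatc
Sycp3 chr10:88459511-88459540 (+ strand): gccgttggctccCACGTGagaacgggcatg
Sycp3 chr10:88459532-88459561 (+ strand): acgggcatggagCACGTGctaggaggcggg
Piwil1 chr5:128736055-128736084 (+ strand): aaaaccgccaccCACGTGgcagccaatcag
Piwil1 chr5:128736080-128736109 (+ strand): atcagggcccagCACGTGtccacctcgccg

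Ddx4 was the germ cell gene whose signals followed the active fusions. The Ddx4 gene lies at chr13:112598333-112652633 (GRCm38.p6) and its probe set, 1427242_at, gave 114, 121 and 90.8 in ND13 cells. In NA10 cells the signals were 708, 553 and 578. They were 4.3, 42.1 and 21.1 in ND13(N51S) cells and 3.96, 20.1 and 21.9 in the GFP control. All 6 arrays of the active fusions were above their background and all 6 control arrays below it, and the groups of fusion and control arrays did not overlap.

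The mean Ddx4 signal was 109 ± 15.8 in ND13 cells, 613 ± 83.4 in NA10 cells, 22.5 ± 19 in ND13(N51S) cells and 15.3 ± 9.86 in the GFP control (SD, n = 3 each). By rank among all probe sets of an array, Ddx4 lay at the percentiles 41.5 to 47.8 in ND13 cells and 74.9 to 78.4 in NA10 cells, against 2.5 to 27.2 in ND13(N51S) cells and 3.2 to 19.3 in the GFP control. As the control signals were below background, folds are given with each control signal replaced by the background of its array. Against the GFP control, the Ddx4 signal was then 3.31-fold higher in ND13 cells and 18.7-fold higher in NA10 cells. Against ND13(N51S), it was 2.16-fold higher in ND13 cells and 12.2-fold higher in NA10 cells. Backgrounds differed between groups, at 40.5 to 69.8 on the ND13 arrays and 28.5 to 41.5 on those of the GFP control. These folds therefore bound the deposited signal and not the RNA. The ND13 signals were 2.29, 2.99 and 1.3 times the background of their own arrays. On the log2 scale of the deposited signals, the differences from the GFP control were 3.17 for ND13 and 5.66 for NA10, and 4.22 for both fusions against both controls. Without ND13(N51S) replicate 2 and GFP control replicate 1 these differences were 2.36, 4.86 and 4.18. Less Ddx4 RNA per cell and fewer cells with Ddx4 cannot be told apart in RNA of sorted populations.

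**Figure D1:**
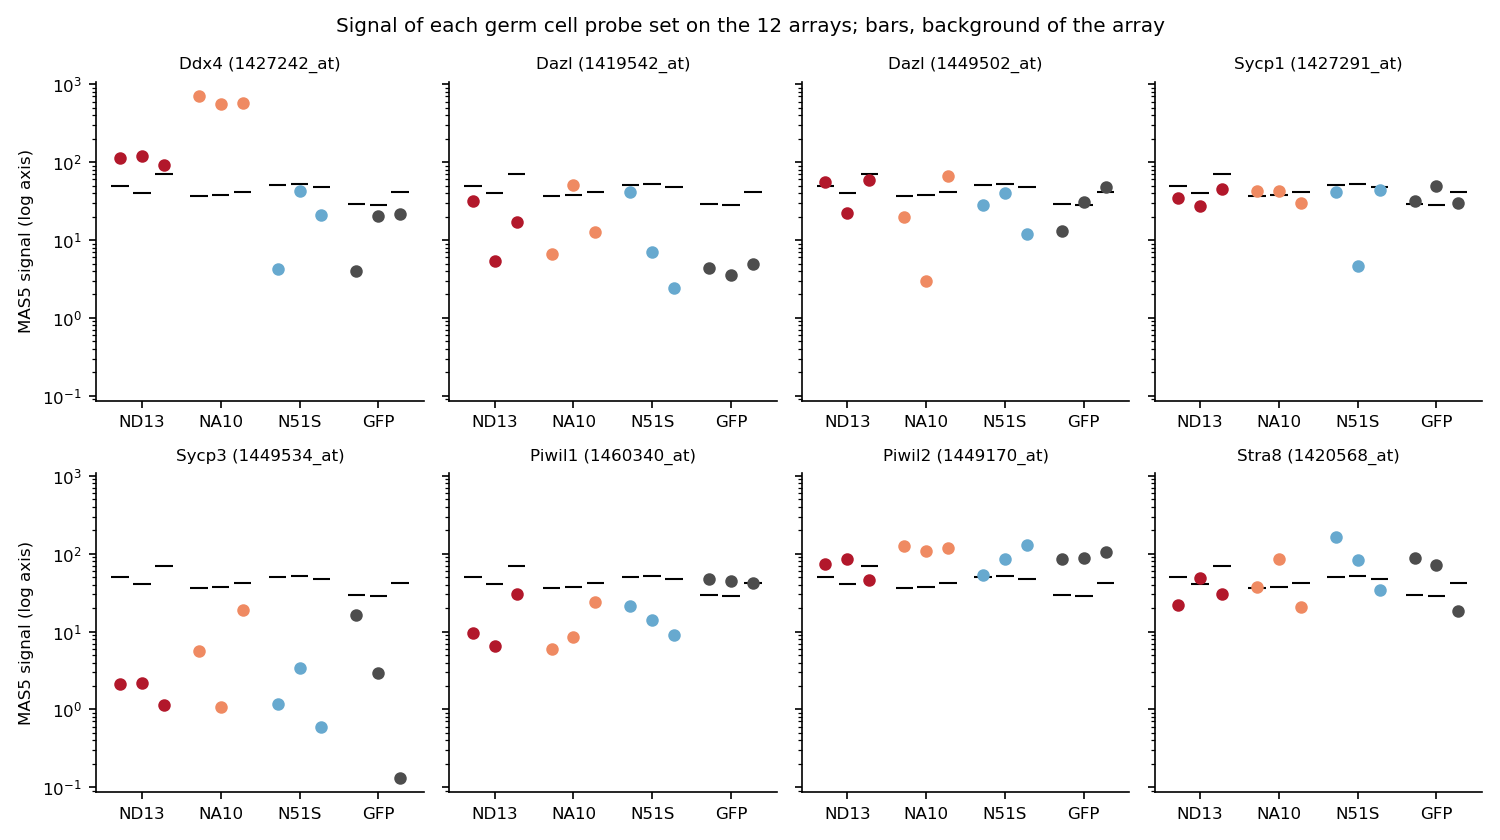
MAS5 signal (log axis) of the 8 probe sets on the 12 arrays, 3 points per group, with the background of each array as a short bar. Ddx4 lies above background on the 6 ND13 and NA10 arrays and below it on the 6 arrays of ND13(N51S) and the GFP control; Sycp3 lies below it on all 12.

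A change from below background on all arrays of one side to above it on all arrays of the other was rare. For both fusions against both controls it was met by 2 of 22626 probe sets, 0.00884%, those of Ddx4 and Crisp3, a secreted cysteine-rich protein named here after its values were seen. Ddx4 was chosen for signals of this kind, so its place in these counts was set by the choice and is no test. Crisp3 signals were 126, 89.9 and 74.4 in ND13 cells and 67.1, 66.2 and 181 in NA10 cells, against 9.98, 17.5 and 30.1 in ND13(N51S) cells and 2.1, 16.5 and 1.86 in the GFP control. In comparisons of single groups the same change was met by 20 probe sets in ND13 and 39 in NA10 against the GFP control, and by 46 in ND13 and 91 in NA10 against ND13(N51S), Ddx4 among them each time. For ND13(N51S) against the GFP control 18 probe sets met it, and Ddx4 was not among them.

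Ddx4 signals also differed between the 2 fusions. This contrast had not been used to choose Ddx4, but the ND13 and NA10 signals had, so the tests below are not independent of that choice. Signals were lower in ND13 cells than in NA10 cells, by 2.50 ± 0.79 on the log2 scale (SE), and by replicate number the NA10 signal was 6.21, 4.57 and 6.37 times that of ND13. No arrays overlapped, and the exact two-sided permutation test, which left out the pairing by replicate number, gave p = 0.1, the smallest that 3 against 3 unpaired arrays allow. In limma with all 4 groups the difference was not called (unadjusted p = 0.00709, Benjamini-Hochberg adjusted p = 0.9998). That fit shares one spread over the groups, and the SD of log2 Ddx4 signals was 0.219 in ND13 and 0.191 in NA10, against 1.69 in ND13(N51S) and 1.39 in the GFP control. With only the ND13 and NA10 arrays fitted, the SE was 0.22 and limma called the difference (adjusted p = 0.00541), with 6 of 22626 probe sets called. Between the control groups, low signals in which were part of what chose Ddx4, no test is given. ND13(N51S) was higher than the GFP control by 0.38 on the log2 scale, with all 6 signals below background and overlapping. By mean signal the order was NA10, ND13, ND13(N51S) and the GFP control.

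**Figure D2:**
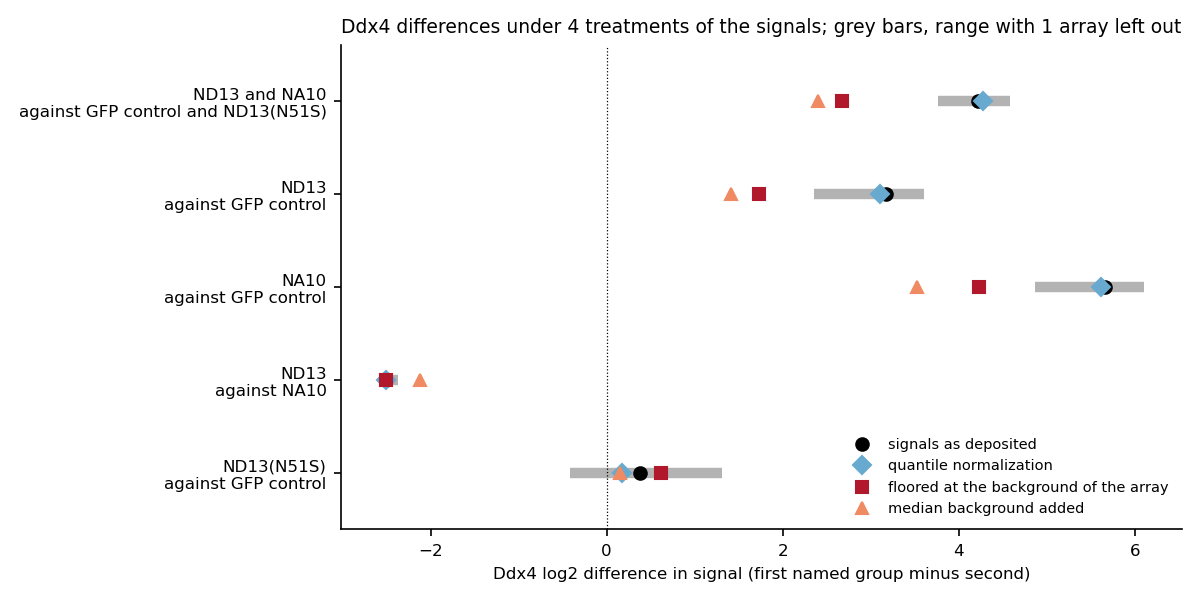
Ddx4 log2 difference in signal (x axis) for 5 comparisons, under 4 treatments of the signals, with the range over fits that leave out 1 array as grey bars. ND13 against NA10 stays between -2.58 and -2.37 when an array is left out, while flooring at the background shortens the differences from the GFP control to 1.73 for ND13 and 4.23 for NA10.

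The other 6 germ cell genes did not follow Ddx4. In limma 0 of their 7 probe sets were called in any of the 7 comparisons, where a call needs an adjusted p below 0.05 and a 1.5-fold change. The share of all probe sets called was 0.0884% in ND13 cells, 0.0133% in NA10 cells and 0% in ND13(N51S) cells, each against the GFP control. It was 0.0133% for ND13 and 0.00884% for NA10 against ND13(N51S), 0.0177% for ND13 against NA10, and 0.0354% for both fusions against both controls. With so few calls over the whole array, 0 of 7 is near the background. At an unadjusted p below 0.05 and 1.5-fold, 1 of 7 passed in each comparison with the GFP control and 0 in the other 4.

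Piwil1 was that gene each time. Its signals were 9.7, 6.62 and 30.2 in ND13 cells, 5.92, 8.53 and 24.1 in NA10 cells, 21.1, 14.2 and 9.04 in ND13(N51S) cells, and 47.9, 45.2 and 42.1 in the GFP control. It was above background only on the 3 arrays of the GFP control, with no overlap with any fusion group. The log2 differences from the GFP control were -1.85 in ND13 (unadjusted p = 0.0291, limma adjusted p = 0.775), -2.08 in NA10 (unadjusted p = 0.0165, adjusted p = 0.996) and -1.69 in ND13(N51S) (unadjusted p = 0.0433, adjusted p = 0.642). Over all probe sets, 4.93% in ND13, 4.03% in NA10 and 6.84% in ND13(N51S) passed the same unadjusted limits. The backgrounds of ND13 (40.5 to 69.8) and ND13(N51S) (47.8 to 51.9) reached above the GFP control signals, so no fold can be bounded there. With the NA10 signals replaced by the backgrounds of their arrays, the GFP control signal was 1.17-fold higher.

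Piwil2 was the most widely detected of the 6, above background on 11 of 12 arrays. Its signals were 74.7, 86.1 and 45.4 in ND13 cells and 125, 108 and 117 in NA10 cells, against 53, 84.7 and 128 in ND13(N51S) cells and 86, 87.5 and 104 in the GFP control. The NA10 arrays were above all arrays of ND13 and of the GFP control. Neither difference was called, at a log2 difference of -0.81 ± 0.39 for ND13 against NA10 (limma adjusted p = 0.9998) and 0.34 ± 0.39 for NA10 against the GFP control (adjusted p = 0.9999).

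Stra8 was above background on 7 of 12 arrays. It gave 21.8, 48.7 and 30.1 in ND13 cells, 37.5, 84.8 and 20.5 in NA10 cells, 163, 81.9 and 34.5 in ND13(N51S) cells and 88.1, 71.5 and 18.2 in the GFP control. The highest value was on an array of the mutant fusion and all 4 groups overlapped, with a log2 difference of -0.78 ± 0.54 for both fusions against both controls (limma adjusted p = 0.768).

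The meiotic structural genes had low signals. Sycp1, the transverse filament of the synaptonemal complex, was above it on 4 of 12 arrays, with signals of 27.4 to 45.6 in ND13 cells and 29.7 to 43 in NA10 cells, against 4.71 to 44.3 in ND13(N51S) cells and 30.1 to 49.5 in the GFP control, where replicate 2 was 1.73 times its background. Sycp3, of its lateral elements, was above background on 0 of 12 arrays, with a highest signal of 18.9. Both carry the E-boxes shown above, as does Piwil1.

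Dazl was measured by 2 probe sets that did not move alike. 1419542_at was above background on 1 array, NA10 replicate 2 at 50.7, and gave 5.4 to 31.7 in ND13 cells and 6.61 to 50.7 in NA10 cells, against 2.4 to 41.7 in ND13(N51S) cells and 3.59 to 4.87 in the GFP control. Both active fusions lay above the GFP control without overlap, at log2 differences of 1.75 ± 1.06 (limma adjusted p = 0.985) for ND13 and 1.93 ± 1.06 (adjusted p = 0.9999) for NA10, but nearly all these signals were below background. 1449502_at was above background on 4 arrays, and its signals of 22.1 to 59.2 in ND13 cells and 3 to 67.1 in NA10 cells overlapped those of 12 to 40 in ND13(N51S) cells and 13.2 to 47.9 in the GFP control.

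Probe sets whose groups did not overlap were counted beside the share over the array. Against the GFP control there were 2 of 7 in ND13, where 12.2% of all probe sets did so, 3 in NA10, where 10.8% did, and 1 in ND13(N51S), where 12% did. Against ND13(N51S) there were 0 of 7 in ND13, with 12.3% over the array, and 0 in NA10, with 13.7%. Between ND13 and NA10 there was 1, with 9.4%. For both fusions against both controls, where 0.605% of probe sets did not overlap, there were 0 of 7.

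The wider germ line programme was also described, by 7 lists of genes of piRNA and nuage, germ cell RNA-binding and translation, meiosis, primordial germ cell specification, spermatogonia, spermatids and oocytes. They named 115 genes other than the 7, of which 83 were measured. In limma 0 of 83 were called in any of the 7 comparisons, beside at most 0.0884% of all probe sets. Both fusions were separated from both controls without overlap by 0 of 83, beside 0.605% of all probe sets. These counts are near the background. At an unadjusted p below 0.05 and 1.5-fold, 4 were higher and 1 lower in ND13, 2 higher and 3 lower in NA10, and 4 higher and 1 lower in ND13(N51S), each against the GFP control. Over all probe sets, 4.93% passed in ND13, 4.03% in NA10 and 6.84% in ND13(N51S). Against ND13(N51S), 0 were higher and 3 lower in ND13, where 6.99% of all probe sets passed, and 0 higher and 9 lower in NA10, where 7.8% did. For ND13 against NA10, 6 were higher and 1 lower, with 3.31% over the array, and for both fusions against both controls 1 was higher and 3 lower, with 5.34%. The median log2 difference from the GFP control was 0.12 in ND13 and -0.11 in NA10, beside 0.01 and 0 over all genes, and against ND13(N51S) it was -0.22 in ND13 and -0.52 in NA10, beside -0.07 and -0.09 over all genes.

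Some listed genes had high signals in all 4 groups. Syce2, a central element protein of the synaptonemal complex, averaged 3270 ± 574 in ND13 cells and 3330 ± 917 in NA10 cells, against 3150 ± 929 in ND13(N51S) cells and 3450 ± 540 in the GFP control (SD, n = 3 each). Pum2, an RNA-binding repressor of translation, averaged 2980 ± 923 in ND13 cells and 2880 ± 582 in NA10 cells, against 3140 ± 687 in ND13(N51S) cells and 2880 ± 740 in the GFP control. Kit, the receptor of stem cell factor in both germ cells and blood progenitors, averaged 774 ± 93.5, 997 ± 213, 985 ± 297 and 956 ± 153 in the same order of groups. The piRNA list was led by the Tudor domain genes Tdrd3, at 730 ± 41 in ND13 cells, 854 ± 3.82 in NA10 cells, 828 ± 210 in ND13(N51S) cells and 744 ± 101 in the GFP control, and Tdrd7. Tdrd1, a Tudor protein of the nuage, was above background on 0 of 12 arrays, with means of 3.24 to 6.72 in the 4 groups. It was named after its values were seen, as a germ granule partner of Piwil2.

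**Figure D3:**
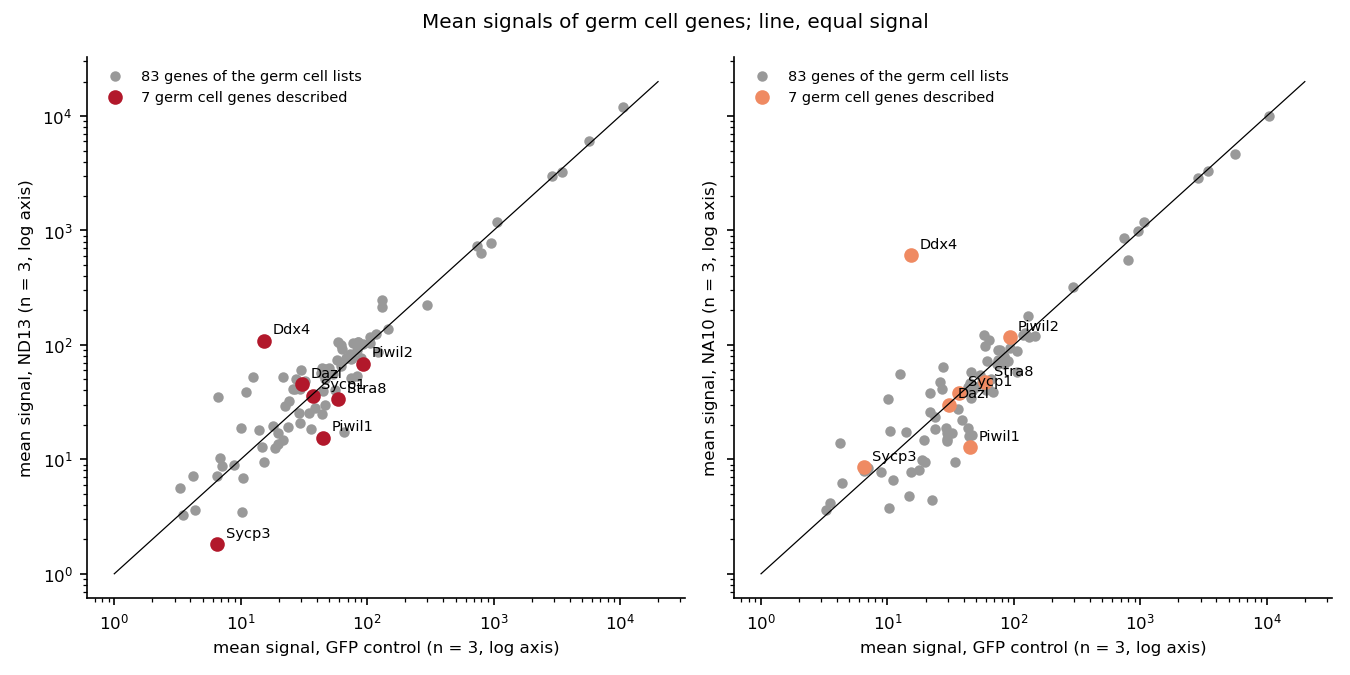
Mean signal of each gene in ND13 (left) and NA10 (right) cells on the y axis against the GFP control on the x axis (n = 3 each, log axes), with the line of equal signal; grey, 83 genes of the germ cell lists, and coloured, the 7 named genes. Ddx4 stands above the line in both panels, at 109 in ND13 cells and 613 in NA10 cells against 15.3 in the GFP control.

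Ddx4 was also set beside the DEAD box helicases that all cells use in splicing, translation and ribosome assembly. Of 27 listed, 23 were measured and all 23 were above background on all 12 arrays. The highest were the mRNA export helicases Ddx39b and Ddx39a and the splicing and transcription cofactor Ddx5, which averaged 4670 ± 152 in ND13 cells, 4790 ± 255 in NA10 cells, 4430 ± 788 in ND13(N51S) cells and 5030 ± 429 in the GFP control (SD, n = 3 each). In limma 0 of 23 were called in any comparison, beside at most 0.0884% of all probe sets. At an unadjusted p below 0.05 and 1.5-fold at most 2 passed in a comparison, Ddx6 and Ddx52. Over all probe sets, 6.84% passed in ND13(N51S) against the GFP control, and 6.99% in ND13 and 7.8% in NA10 against ND13(N51S). With the replicate number as a block, Ddx6, a helicase of mRNA decay and P-bodies, was called higher in ND13 cells (log2 difference 2.23, adjusted p = 0.0401, without the block 0.174) and in NA10 cells (2.50, adjusted p = 0.0245, without the block 0.216) against ND13(N51S), and for both fusions against both controls (1.45, adjusted p = 0.0451, without the block 0.175). Its probe set 1424598_at gave 1450, 1070 and 1890 in ND13 cells, 1900, 1390 and 1950 in NA10 cells, 266, 141 and 753 in ND13(N51S) cells, and 1210, 941 and 1110 in the GFP control, with the lowest value on the array of poor RNA quality. The other 2 probe sets of Ddx6 were not lower in this way in ND13(N51S), at 993 to 1220 and 297 to 507, against 731 to 1110 and 399 to 497 in the GFP control. The share of all probe sets called with the block is not given here, so the Ddx6 calls have no background beside them.

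**Figure D4:**
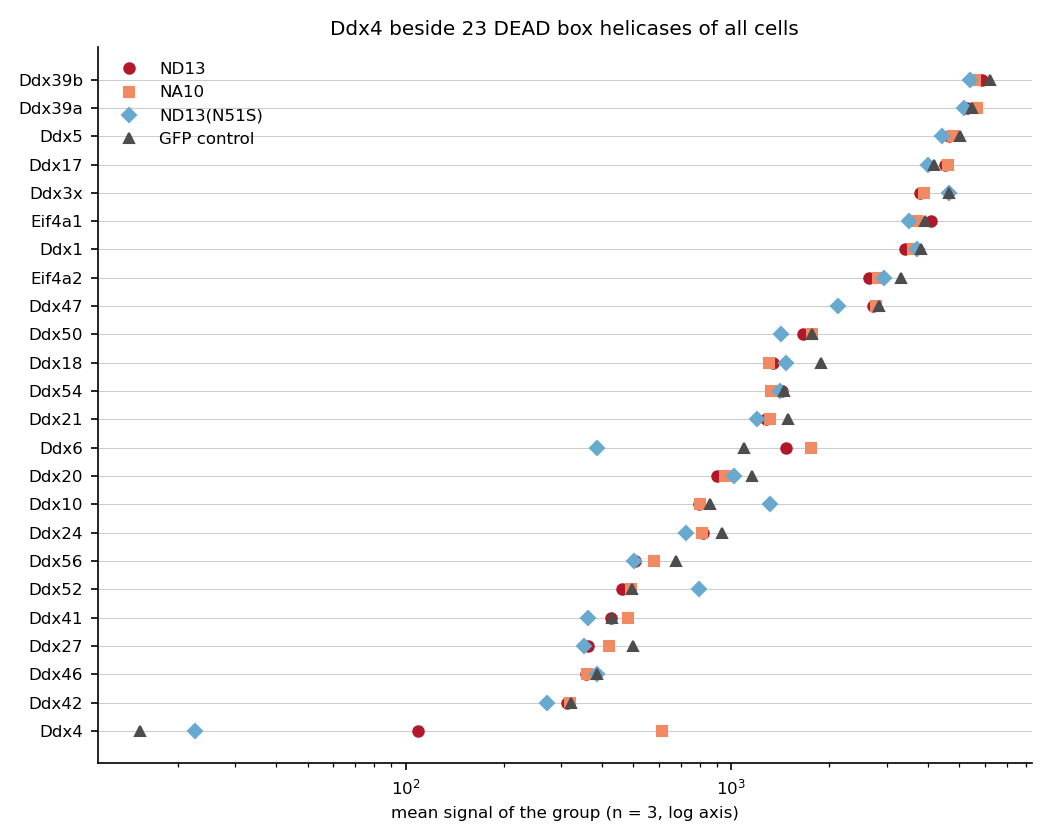
Mean signal (x axis, log, n = 3 per group) of Ddx4 and of 23 DEAD box helicases of all cells, 1 row per gene, with a symbol for each of the 4 groups. The 4 groups lie close together for most helicases, Ddx6 is low in ND13(N51S), and Ddx4 spans 15.3 in the GFP control to 613 in NA10.

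Most genes that keep germ line promoters silent were above background in all groups. Of 19 listed repressors 17 were measured, 11 of them above background on all 12 arrays and the lowest, Max and Dnmt3l, on 6 each. In limma 0 of 17 were called in any comparison, beside at most 0.0884% of all probe sets. At an unadjusted p below 0.05 and 1.5-fold 1 passed, Dnmt3a in ND13(N51S) against the GFP control, where 6.84% of all probe sets did. Trim28, a corepressor, averaged 3600 ± 551 in ND13 cells, 3680 ± 489 in NA10 cells, 3480 ± 993 in ND13(N51S) cells and 3910 ± 375 in the GFP control (SD, n = 3 each). Dnmt1, the maintenance DNA methyltransferase, averaged 2500 ± 425, 2700 ± 295, 2800 ± 26.5 and 2740 ± 491 in these groups, in the same order. Of the silencing complex, whose genes were named after their values were seen, E2f6 averaged 992 ± 111 in ND13 cells, 1010 ± 104 in NA10 cells, 842 ± 123 in ND13(N51S) cells and 943 ± 79.4 in the GFP control. Its partner Mga averaged 155 ± 54.6, 139 ± 40.4, 103 ± 96.7 and 157 ± 64.3 in the same order of groups, above background on 11 of 12 arrays. Max averaged 63.5 ± 64.7 in ND13 cells, 31.2 ± 37.4 in NA10 cells, 54.9 ± 69.3 in ND13(N51S) cells and 67.1 ± 39.9 in the GFP control. The DNA methylation of the Ddx4 promoter was not measured.

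Genes beside Ddx4 on chromosome 13 were not called. The 3 nearest measured genes at lower coordinates were Il31ra, Il6st and Map3k1, and those at higher coordinates were Plpp1, Mtrex and Gpx8. In limma 0 of 6 were called in any comparison, beside at most 0.0884% of all probe sets. Il31ra, a cytokine receptor 17.6 kb away, averaged 12.8 ± 4.53 in ND13 cells and 62.8 ± 21.9 in NA10 cells, against 46.3 ± 32.3 in ND13(N51S) cells and 20.9 ± 9.4 in the GFP control, and was above background on 4 of 12 arrays. Before adjustment it was higher in NA10 cells than in the GFP control (log2 difference 1.60, limma unadjusted p = 0.0379) and lower in ND13 cells than in NA10 cells (-2.29, unadjusted p = 0.00573) and ND13(N51S) cells (-1.64, unadjusted p = 0.0345), and no other of the 6 passed at an unadjusted p below 0.05 and 1.5-fold by its probe set with the highest mean. Over all probe sets, 4.03%, 3.31% and 6.99% passed in these comparisons, in the same order.

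The probe sets most like Ddx4 over the 12 arrays, by Pearson correlation of log2 signals floored at the background among 16914 candidates, were those of Lrrc49 (r = 0.93), Abcb1a (0.917), Tspan13 (0.914), Clu (0.914) and Hoxa9 (0.907). These values describe 12 arrays that share 4 groups. Abcb1a, a drug efflux pump, averaged 73.5 ± 14.3 in ND13 cells and 219 ± 38.8 in NA10 cells, against 74.1 ± 24.9 in ND13(N51S) cells and 65.2 ± 9.11 in the GFP control (SD, n = 3 each). Clu, a secreted chaperone, averaged 159 ± 51.3 and 807 ± 579 in the active fusions, against 106 ± 47.7 and 49.6 ± 35.3. Hoxa9, a homeobox gene of blood progenitors, averaged 5150 ± 359 in ND13 cells and 6550 ± 503 in NA10 cells, against 4090 ± 761 in ND13(N51S) cells and 3790 ± 138 in the GFP control. All 5 had their highest mean in NA10 cells, which follows from their being picked for likeness to Ddx4.

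**Figure D5:**
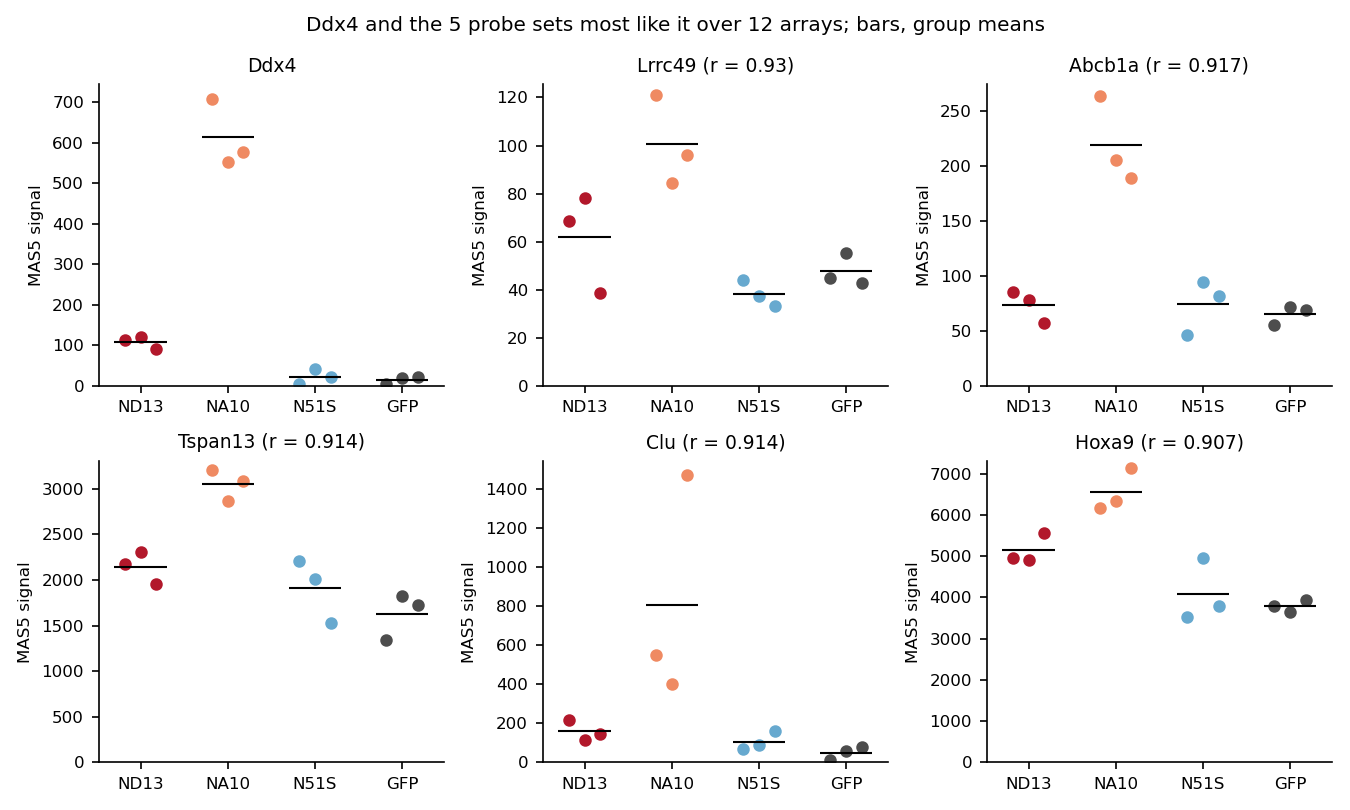
MAS5 signal (y axis, linear, from 0) of Ddx4 and of the 5 probe sets most like it, with 3 arrays per group as points and group means as bars. In each panel the NA10 mean is the highest, which follows from how the 5 were picked, and the 6 control arrays of Ddx4 are at or below 42.1.

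Markers of other cells that the sort could hold were read on the same arrays. Of 13 markers of gonadal somatic cells 9 were measured and 2, Star and Inha, were above background on all 12 arrays, Cyp11a1 on 11, and Cyp17a1 and Amh on 1 each. Their summed signal was 922 to 1200 in ND13 cells, 681 to 801 in NA10 cells, 567 to 1070 in ND13(N51S) cells and 640 to 882 in the GFP control. Cyp11a1, the first enzyme of steroid synthesis, averaged 410 ± 23.3 in ND13 cells and 327 ± 50.2 in NA10 cells, against 161 ± 143 in ND13(N51S) cells and 231 ± 111 in the GFP control (SD, n = 3 each), a log2 difference of 1.5 for both fusions against both controls (limma unadjusted p = 0.0381, adjusted p = 0.598). By value, 4 of the 9 were higher in that comparison and 5 lower. For NA10 against ND13(N51S), 1 was higher and 8 lower, among them Inha (-0.70, limma unadjusted p = 0.0191, adjusted p = 0.495). Of 12 fibroblast markers, for the producer cells, 11 were measured and 6 were above background on all 12 arrays, with summed signals of 5490 to 7740, 5820 to 6910, 4600 to 8440 and 4630 to 5720 in the same order of groups. S100a4, with a mean of 4580, made up most of that sum. Postn, a matrix protein above background on 4 arrays, averaged 12 ± 8.09 in ND13 cells and 87.6 ± 33.5 in NA10 cells, against 33.5 ± 25.7 in ND13(N51S) cells and 14 ± 2.35 in the GFP control, and was thus highest in NA10 cells, as Ddx4 was. Its log2 difference was 2.59 for NA10 against the GFP control (limma unadjusted p = 0.0143, adjusted p = 0.995) and -0.43 for ND13. For both fusions against both controls, 3 of the 11 fibroblast markers were higher by value and 8 lower. The lower ones included Dcn (-0.74, limma unadjusted p = 0.00328, adjusted p = 0.363) and Fn1 (-0.76, unadjusted p = 0.0154, adjusted p = 0.518). Postn and Dcn were named after their values were seen. Against the GFP control, the gonadal sum was higher without overlap in ND13 cells, with 8 of the 9 markers higher by value and 1 lower. The fibroblast sum was higher without overlap in NA10 cells, where S100a4 averaged 4980 ± 843 against 3470 ± 381 in the GFP control. Of the 11 fibroblast markers, 6 were higher by value in NA10 cells than in the GFP control and 5 lower. Every summed range of an active fusion overlapped that of ND13(N51S). The part of such cells in the Ddx4 signal was not tested.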

How the data were processed

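RNA of 12 samples was hybridised to the MOE430A array. The authors deposited MAS5 signal intensities on a linear scale for 22690 probe sets, scaled to a common trimmed mean. They were used as log2 values floored at 0.01 (0 signals were that low), without further scaling, after 64 control probe sets had been left out. All 22626 others were fitted in limma 3.58.1 (R 4.3.3; lmFit, eBayes with trend and robust), 4 groups in 1 fit with 13.3 median degrees of freedom, Benjamini-Hochberg adjusted per comparison. The fit was tested on simulated data. Samples were grouped by their labels.

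Gene symbols came from the platform annotation and, with coordinates and promoters, from RefSeq (GRCm38.p6). A gene with several probe sets was given by each, or, within lists, by the one with the highest mean. Beyond the 7 genes, those named were listed genes called in a comparison, otherwise at most 3 per list by mean signal, the 3 nearest genes on each side of Ddx4 and the 5 probe sets most like it, unless said otherwise. The members and lists were chosen with earlier results of these data known.

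Pairing by the labels' replicate numbers was checked. Deviations from the group mean correlated at 0.107 to 0.589 between arrays of the same number and at -0.408 to 0.105 between others, over 11313 probe sets with a mean above the median, and the arrays were taken as paired by number. The main fit had no term for this pairing, which the replicate block added as an alternative. Precision is limited by the number of arrays. The alternatives left out dim probe sets (mean below the median) or used a pseudocount of 41.5 (the median background), a floor at the array's background, quantile normalization, median centring, plain eBayes, fits of the compared groups only, the methods' t-test, the replicate block, and arrays left out. Python 3.11.15 and matplotlib 3.10.9 made the figures.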

Additional observations from a re-analysis of the deposited data

How the results depend on the processing

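The 7 probe sets of the other germ cell genes gave 0 calls in all 7 comparisons with each array left out, without both arrays in doubt, and under every alternative run except 2. The methods' t-test at an unadjusted p and 1.5-fold gave 1 for each vector with a fusion against the GFP control (Piwil1) and 1 for ND13 against NA10 (Piwil2), and after adjustment 0. It gave 0 of the neighbours, helicases and repressors after adjustment and at most 1, 2 and 0 of them before it. The filter on dim probe sets left none of the 7 to count. Signals floored at the array's background gave 1 for ND13 against the GFP control, Sycp3, which was below background on all 6 arrays, so that its difference is one between floors. Of the 83 genes of the lists, an alternative added after seeing the data, the same floor called 19 in that comparison, 13 of them below background on all 6 arrays, where it called 13.5% of all probe sets. The t-test at an unadjusted p called, against the GFP control, 5 of the 83 in ND13 (3.74% of all probe sets), 3 in NA10 (3.2%) and 4 in ND13(N51S) (4.08%). Against ND13(N51S) it called 4 in ND13 (4.36%) and 10 in NA10 (5.47%), with 6 for ND13 against NA10 (2.89%) and 5 for both fusions against both controls (4.34%).

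For Ddx4, the differences without a test kept their direction under every alternative run. With the pseudocount they were 1.41 for ND13 and 3.53 for NA10 against the GFP control and 2.40 for both fusions against both controls, and with the floor at background 1.73, 4.23 and 2.67. With 1 array left out they ranged over 2.36 to 3.60, 4.86 to 6.10 and 3.76 to 4.58. ND13 against NA10 was called by limma with the pseudocount (-2.12, adjusted p = 0.00476), with the floor (-2.50, adjusted p = 0.000563) and in the fit of these groups only (-2.50, adjusted p = 0.00541), in which the control arrays with their wide spread take no part or are raised to background. It was not called with the replicate block (-2.50, adjusted p = 0.637), with plain eBayes (adjusted p = 0.988), quantile normalization or median centring (both adjusted p over 0.99), without both arrays in doubt (adjusted p = 0.411), with the methods' t-test after adjustment or with 1 array left out (-2.58 to -2.37, lowest adjusted p = 0.743 in limma). ND13(N51S) against the GFP control reversed without GFP control replicate 1 (-0.42), without ND13(N51S) replicate 2 (-0.33) and without both (-1.14), within a range of -0.42 to 1.31 with 1 array left out. The replicate block changed no call of the 6 other genes, of the 83, or of Ddx4 between ND13 and NA10. Signals below background limit every statement on size for Ddx4 in the controls and for Sycp3, Sycp1, Dazl and Piwil1.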

Other observations

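Small RNA genes that do not depend on piRNAs were expressed in all groups. Of 8 listed, 4 were measured and 3 of them were above background on all 12 arrays. Ago2, the slicing Argonaute of the microRNA pathway, averaged 965 ± 429 in ND13 cells, 869 ± 280 in NA10 cells, 620 ± 179 in ND13(N51S) cells and 898 ± 373 in the GFP control (SD, n = 3 each). Dicer1 averaged 587 ± 41.4, 643 ± 66.5, 569 ± 137 and 660 ± 64 in the same order of groups. In limma 0 of 4 were called in any comparison, beside at most 0.0884% of all probe sets, and 0 passed an unadjusted p below 0.05 and 1.5-fold, beside 3.31% to 7.8%.

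Dppa3, a gene of primordial germ cells and oocytes named here after its values were seen, had its highest signals in cells with the mutant fusion. It averaged 106 ± 15.5 in ND13 cells and 68.4 ± 10.4 in NA10 cells, against 191 ± 14.4 in ND13(N51S) cells and 83.9 ± 5.14 in the GFP control. The log2 difference was -1.49 for NA10 against ND13(N51S) (limma unadjusted p = 0.000146, adjusted p = 0.223) and 1.18 for ND13(N51S) against the GFP control (unadjusted p = 0.00105, adjusted p = 0.349), and neither was called.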
